A study of Mus musculus with 3 samples.

Results

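The cells described are *Rgs5*-rich mural cells of the mouse ascending aorta, that is, contractile vessel wall cells that also carry much *Rgs5* RNA. A cell was taken as mural when *Acta2*, *Myh11*, *Tagln*, *Cnn1*, *Myl9* and *Tpm2* together made up at least 150 of every 10000 of its unique molecular identifiers (UMIs), *Dcn* stayed below 10 per 10000, and neither *Ptprc* nor *Pecam1* had a UMI. It was taken as *Rgs5*-rich when *Rgs5* reached at least 5 per 10000. Members were thus selected on *Rgs5*, the contractile genes, *Dcn*, *Ptprc* and *Pecam1*, so the values of these genes are a description. The rule was met by 383 of the 26158 cells whose gene number lay from 600 to 5000 and whose mitochondrial UMIs stayed at or under 10%, namely 145 cells in WT, 40 in mgR and 198 in mgR-LOS. All other cells of the mural gate, 12530 in number, served for comparison and are called other mural cells.

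Ascending aortas were taken from male C57BL/6J mice at P45 and dissociated, and RNA was counted in 1 droplet library per condition. The WT library held 3 pooled mice and the mgR library 3 pooled *Fbn1*mgR/mgR mice, which are homozygous for a hypomorphic fibrillin-1 allele and serve as a model of the aortic aneurysm of Marfan syndrome. The mgR-LOS library held 4 pooled *Fbn1*mgR/mgR mice given the angiotensin receptor blocker losartan at 0.6 g/L in the drinking water from P16. The labels do not say whether the mgR mice drank vehicle. The libraries had 7858, 10657 and 14663 barcodes with 83338726, 123956320 and 121436873 UMIs. Each condition is a single library without replicates, so no p-value is given, and all intervals are 95% intervals of counting error only. The hypomorphic gene followed the labels in the cells studied, since *Fbn1* was at 261 counts per 1000000 UMIs (CPM) in WT, 94.6 CPM in mgR and 67.3 CPM in mgR-LOS *Rgs5*-rich cells.

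Mural cells wrap the endothelial tube of vessels and are smooth muscle cells in large arteries and pericytes on capillaries. RGS proteins speed up the GTPase activity of G protein alpha subunits and so shorten signals from vasoactive receptors. RGS5 acts on the Gq and Gi families and is best known as a marker of pericytes and of some arterial smooth muscle cells. Desmin (*Des*) is the muscle intermediate filament protein, versican (*Vcan*) is a large proteoglycan that binds hyaluronan, and *Actg2* encodes the smooth muscle gamma-actin typical of visceral muscle.

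The mgR cells need a warning before any value is read. A score that compares each cell with artificial mixtures of 2 cells called 15 of the 40 mgR *Rgs5*-rich cells (37.5%) doublets, against 7 of 145 (4.83%) in WT and 15 of 198 (7.58%) in mgR-LOS. Among all mural cells the called share was 2.56%, 4.72% and 4.46%. Many mgR values are therefore also given without called doublets, and whether true doublets account for the differences was not tested. Pairs of libraries shared 22 to 46 barcodes, none of which belonged to *Rgs5*-rich cells.

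*Rgs5*-rich cells made up the largest share of mural cells in WT and the smallest in mgR. The share was 5.09% (4.31 to 5.96) of 2849 mural cells in WT, 1.39% (0.993 to 1.88) of 2883 in mgR and 2.76% (2.39 to 3.16) of 7181 in mgR-LOS, by exact binomial (Clopper-Pearson) intervals. The mgR share was 3.70 percentage points below WT (interval of the difference, −4.65 to −2.80), the mgR-LOS share was 1.37 points above mgR (0.760 to 1.92) and 2.33 points below WT. At the limits of the rule these differences exceeded counting error, but the spread between mice of a condition was not measured. Mural cells themselves were 53.1%, 35.7% and 56.5% of the cells that passed the filter in WT, mgR and mgR-LOS, so that *Rgs5*-rich cells were 2.70%, 0.495% and 1.56% of those cells.

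Depth and the gate both bear on these shares. The median cell held 14205, 11775 and 8017 UMIs among *Rgs5*-rich cells of WT, mgR and mgR-LOS, and 14346, 15296 and 8465 UMIs among other mural cells. When cells with at least 4000 UMIs were thinned to 4000, which left out 88 WT, 64 mgR and 524 mgR-LOS mural cells, at least 2 *Rgs5* UMIs were found in 7.50% (6.54 to 8.54) of 2761 WT, 2.66% (2.10 to 3.32) of 2819 mgR and 3.85% (3.40 to 4.34) of 6657 mgR-LOS mural cells, in the same order as the unthinned shares. The condition on *Pecam1* removed 19.7% of otherwise mural WT cells but 3.13% of mgR and 6.91% of mgR-LOS cells. With these cells kept, the *Rgs5*-rich share was 5.32%, 1.41% and 2.72%. At a stricter limit on mitochondrial UMIs, 5% in place of 10%, the shares were 4.01%, 2.66% and 3.89%. The difference of mgR from WT narrowed to −1.35 points (−3.75 to 0.607). That of mgR-LOS from mgR was 1.22 points (−0.232 to 2.40), near the 1.37 points at 10%. Both intervals then included 0, with 18 WT, 23 mgR and 109 mgR-LOS members left. At *Rgs5* of at least 10 per 10000 the difference of mgR-LOS from mgR was 0.164 points (−0.311 to 0.561), which also included 0.

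Cells that should lack *Rgs5* gave a low background. Among cells with *Ptprc*, the leukocyte gate, the limit of 5 per 10000 was reached by 0 of 121 in WT, which allows a share of up to 2.48% at a floor of 3 cells, 0.140% of 1430 in mgR and 0.315% of 634 in mgR-LOS, at median depths of 8462, 7880 and 6594 UMIs. The mural gate did not hold all *Rgs5*-rich cells of the aorta. The same level was reached by 4.41%, 6.23% and 6.01% of cells in a fibroblast gate and by 3 of 67, 11 of 170 and 9 of 98 cells in an endothelial gate.

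The level of *Rgs5* formed a long tail over mural cells with no gap at the limit. No *Rgs5* UMI was found in 64.6% of WT, 84.1% of mgR and 84.5% of mgR-LOS mural cells. The *Rgs5*-rich cells nevertheless held 59.1%, 58.4% and 58.5% of all *Rgs5* UMIs of the mural cells, a similar part in each library. Over all mural cells *Rgs5* was at 114 CPM in WT, 42.4 CPM in mgR and 54.4 CPM in mgR-LOS. Levels of at least 10 per 10000 were reached by 66, 27 and 79 cells and levels of at least 20 by 21, 13 and 26 cells, which is 0.737%, 0.451% and 0.362% of mural cells. In the plot of the share of mural cells against the *Rgs5* level, the WT curve lay above the other two up to a level of 20.

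**Figure D1:**
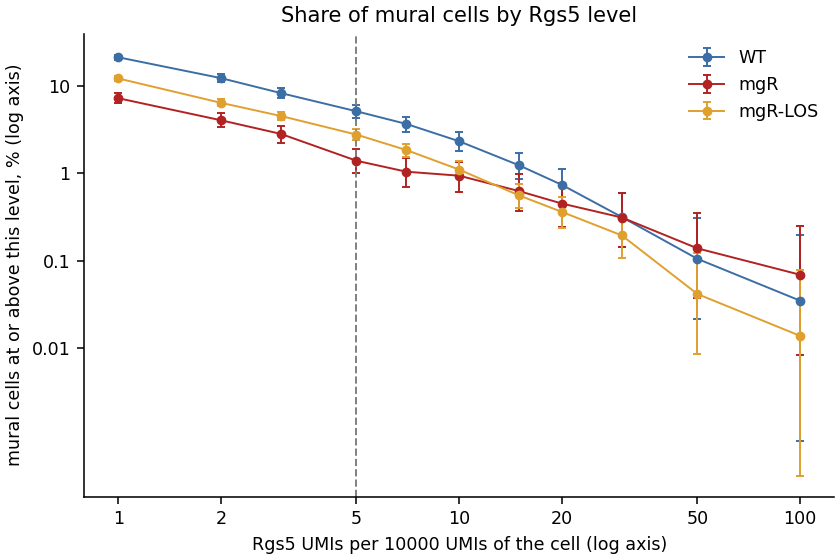
The share of mural cells (y axis, %, log scale) at or above each level of *Rgs5* (x axis, UMIs per 10000, log scale) in WT, mgR and mgR-LOS, with the dashed line at the limit of 5. At that limit the curves stand at 5.09%, 1.39% and 2.76%, and none has a step there.

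Within the selected cells *Rgs5* was at 1329.6 CPM in WT, 2485 CPM in mgR (1922 CPM without called doublets) and 1205 CPM in mgR-LOS, values that the rule itself set apart from the 49.1, 17.9 and 23.2 CPM of other mural cells. The median cell carried 9.62, 13.4 and 8.42 *Rgs5* UMIs per 10000 and the highest cell 101, 190 and 129. In raw UMIs the medians were 14, 14.5 and 7, and 5, 4 and 26 of the cells passed the rule on fewer than 4 *Rgs5* UMIs. Just inside the limit, at 5 to 6 per 10000, lay 21, 4 and 37 cells with *Des* at 80.1, 475 and 147 CPM. Just outside it, at 4 to 5, lay 38, 14 and 48 cells with *Des* at 286, 10.3 and 224 CPM.

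The cells carried the genes of smooth muscle, within and outside the gate, and few UMIs of the genes most particular to capillary pericytes. The rule itself required the gate genes. It also left out *Rgs5*-rich cells with a low contractile sum, which carried pericyte genes in mgR and mgR-LOS, as given below. Both statements therefore describe the gated cells and do not test what they are. The 6 contractile genes of the gate made up a median of 498, 327 and 445 per 10000 UMIs in WT, mgR and mgR-LOS, against 532, 506 and 496 in other mural cells. The 24 contractile and cytoskeletal genes outside the gate summed to 24237, 18849 and 23947 CPM, against 24666, 24011 and 25075 CPM in other mural cells. Without called doublets the mgR members were at 19853 CPM. *Higd1b* had 0, 4 and 3 UMIs in all *Rgs5*-rich cells of WT, mgR and mgR-LOS, vitronectin (*Vtn*) 0, 2 and 0, and *Atp13a5* none in any library. *Higd1b* was found in 2 of 40 mgR cells, against 0.457% of other mural cells. *Ndufa4l2*, a mitochondrial protein gene of pericytes, had no UMI in WT but was at 54.1 CPM in mgR (9 of 40 cells) and 16.1 CPM in mgR-LOS (14 of 198 cells), against 0.523, 1.61 and 1.96 CPM in other mural cells. Without called doublets it was at 12.8 CPM in mgR. The cells are named here by their contractile genes and *Rgs5*. The median mitochondrial share was 6.18%, 4.75% and 4.80%, against 6.27%, 5.78% and 5.35% in other mural cells.

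Of 14 pericyte markers, 4 reached the floor of 50 CPM and 20 UMIs in all 3 libraries, with 2 higher and 1 lower than in other mural cells in every library. Over all 2538 genes at that floor, 19.4% were higher and 19.7% lower in every library. *Pdgfrb*, the receptor for PDGF-B that recruits mural cells, was at 97.5, 196 and 125 CPM against 92.7, 96.2 and 75.2 CPM in other mural cells. *Abcc9*, the regulatory subunit of vascular ATP-sensitive potassium channels, was at 86.7, 85.6 and 92.4 CPM, ratios of 1.16 (0.994 to 1.36), 2.09 (1.47 to 2.88) and 1.31 (1.11 to 1.54). Its pore-forming partner *Kcnj8* stayed below the floor at 17.6, 22.5 and 28.6 CPM. The proteoglycan *Cspg4*, also called NG2, was at 238, 286 and 238 CPM and differed little from other mural cells, with ratios of 0.985, 0.984 and 1.00. The adhesion molecule *Mcam* was lower in each library, at 272, 228 and 209 CPM and ratios of 0.977, 0.873 and 0.960, all with intervals that included 1. The receptor *Notch3* differed between libraries and was at 9.31 CPM in WT, 167 CPM in mgR (72.6 CPM without called doublets) and 85.2 CPM in mgR-LOS. The list summed to 777, 1189 and 878 CPM in *Rgs5*-rich and 761, 825 and 725 CPM in other mural cells.

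Some cells with as much *Rgs5* failed the mural gate, 128 in WT, 247 in mgR and 279 in mgR-LOS. Most of them failed by *Dcn*, at 78, 209 and 231 cells. Those that failed by the contractile sum alone were 3, 22 and 21 cells, and those of mgR and mgR-LOS carried pericyte genes, with *Higd1b* at 113 and 115 CPM and *Notch3* at 230 and 279 CPM. The 3 WT cells held 1 UMI of each of these genes. Called doublets were 33.3%, 18.2% and 19.0% of that small set.

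Since the rule compared cells by *Rgs5* over the same genes and cells, the differences between *Rgs5*-rich and other mural cells that follow are a description and not a test. Of 2538 genes that reached the floor in all 3 libraries, 5 (0.197%) were at least 2-fold higher in *Rgs5*-rich cells in every library, and 1 (0.0394%) was at least 2-fold lower. In any size, 492 genes (19.4%) were higher in all 3 libraries and 500 (19.7%) lower. The 5 genes were *Rgs5* itself, *Dcn*, *Psd*, *Cxcl12* and *Gpc3*.

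*Des* (chr1:75360329-75368579, plus strand) was higher in *Rgs5*-rich cells in all 3 libraries. It was at 368 CPM in WT, 117 CPM in mgR and 268 CPM in mgR-LOS *Rgs5*-rich cells and at 176, 66.5 and 124 CPM in other mural cells, ratios of 2.09 (1.93 to 2.25), 1.76 (1.31 to 2.32) and 2.16 (1.96 to 2.38). The mgR value rested on 8 cells, 1 of which gave 40.4% of the *Des* UMIs, and without called doublets the mgR ratio was 3.19. After thinning to 4000 UMIs, 34.8%, 18.2% and 22.9% of *Rgs5*-rich cells had a *Des* UMI, against 20.8%, 8.51% and 15.6% of other mural cells. The same share was 0 of 104 in WT, which allows up to 2.88%, 1.72% in mgR and 0.994% in mgR-LOS in the leukocyte gate.

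*Vcan* (chr13:89655312-89742509, minus strand) differed in the same direction. It was at 184, 135 and 117 CPM in *Rgs5*-rich cells of WT, mgR and mgR-LOS and at 66.0, 71.7 and 55.2 CPM in other mural cells, ratios of 2.79 (2.50 to 3.11), 1.88 (1.43 to 2.43) and 2.12 (1.82 to 2.44). Without called doublets the mgR ratio was 2.77. A *Vcan* UMI was found in 46.8%, 33.3% and 27.4% of thinned *Rgs5*-rich cells, 18.9%, 20.1% and 15.6% of other mural cells and, of leukocyte gate cells, in none in WT, 3.84% in mgR and 1.79% in mgR-LOS. Over all cells *Actg2* (chr6:83512905-83536265, minus strand) showed the smallest ratio of the markers. It was at 547, 270 and 330 CPM against 328, 194 and 253 CPM, ratios of 1.67, 1.39 and 1.30, and without called doublets the mgR ratio was 2.42.

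The 3 marker genes seldom occurred together in a cell at equal depth. All of *Des*, *Vcan* and *Actg2* were seen in 15 of 141 thinned WT cells (10.6%), 0 of 33 mgR cells and 7 of 175 mgR-LOS cells, against 2.18%, 0.574% and 1.02% of other mural cells. The 0 of 33 allows a share of up to 9.09% at a floor of 3 cells. None of the 3 genes was seen in 12.8%, 42.4% and 40.6% of *Rgs5*-rich cells. The same share was 33.8%, 51.3% and 44.3% of other mural cells, so it was lowest in WT in both populations.

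**Figure D2:**
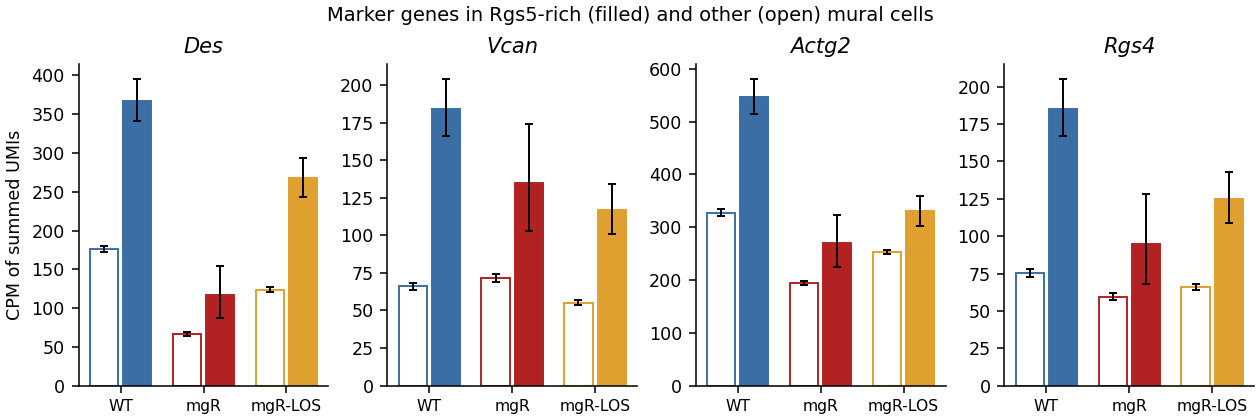
Levels of *Des*, *Vcan*, *Actg2* and *Rgs4* (y axis, CPM of summed UMIs) in *Rgs5*-rich (filled bars) and other mural cells (open bars) of the 3 libraries, with 95% Poisson intervals. Each of the 4 genes stands higher in *Rgs5*-rich cells in every library, from 1.30-fold for *Actg2* in mgR-LOS to 2.79-fold for *Vcan* in WT.

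*Rgs4*, the neighbor of *Rgs5* on chromosome 1, was also higher in *Rgs5*-rich cells. *Rgs4* encodes another GTPase-activating protein for Gq and Gi alpha subunits. It was at 185, 94.6 and 125 CPM in *Rgs5*-rich cells of WT, mgR and mgR-LOS and at 75.2, 59.5 and 65.8 CPM in other mural cells, ratios of 2.46 (2.21 to 2.74), 1.59 (1.14 to 2.16) and 1.90 (1.65 to 2.19). The mgR ratio was 1.49 without called doublets. In GRCm38, *Rgs5* lies on the plus strand (chr1:169655501-169695813) and *Rgs4* on the minus strand (chr1:169741477-169747642), with 45663 bases between them. Of the RGS family, 17 further genes were listed. Only *Rgs4* and *Rgs7bp* reached the floor in all 3 libraries, and *Rgs7bp*, which encodes a membrane anchor of RGS proteins, had ratios of 1.20, 0.793 and 1.10. The list summed to 389, 448 and 412 CPM against 254, 238 and 284 CPM, without *Rgs5*.

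The 250 bases before the start of *Rgs5* (chr1:169655251-169655500, plus strand) and of *Rgs4* (chr1:169747643-169747892, minus strand) are printed 5′ to 3′ from RefSeq for GRCm38.p6, because these neighbors stood higher in the same cells. Capitals mark TATAAA, the only searched motif found in either window.
Rgs5: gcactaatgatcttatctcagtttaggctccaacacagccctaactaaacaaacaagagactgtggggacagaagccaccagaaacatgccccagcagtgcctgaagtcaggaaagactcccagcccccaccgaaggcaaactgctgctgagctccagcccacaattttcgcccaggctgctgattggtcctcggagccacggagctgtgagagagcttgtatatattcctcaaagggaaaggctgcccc
Rgs4: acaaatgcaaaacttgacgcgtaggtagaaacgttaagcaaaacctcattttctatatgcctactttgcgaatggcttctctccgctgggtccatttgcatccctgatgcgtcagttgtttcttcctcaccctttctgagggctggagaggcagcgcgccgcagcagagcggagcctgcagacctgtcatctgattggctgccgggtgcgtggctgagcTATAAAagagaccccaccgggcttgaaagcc
The TATAAA of *Rgs4* begins 31 bases before the start, and 7.59% of all 32851 windows of this length hold that motif on the coding strand. Neither window held the CArG box bound by serum response factor, the MCAT element CATTCC or the RBPJ core TGGGAA on either strand, which were found in 1.47%, 12.6% and 21.6% of the windows. These motifs do not overlap here, and a match or its absence is a description of the letters only.

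Some genes with the highest ratios encode matrix proteins, which describes single genes and was not tested for a group. Of the collagen, basement membrane and integrin genes at the floor, 0 of 21 were at least 2-fold higher in every library. The same was true of 0 of 10 elastic fiber genes and 0 of 6 genes of proteoglycans and hyaluronan. Of 5 fibroblast markers at the floor 1 was, namely *Dcn*, a gene of the gate. The stromal cytokine *Cxcl12*, the ligand of CXCR4, was at 156, 309 and 173 CPM in *Rgs5*-rich cells, ratios of 2.78, 3.74 and 2.40. *Gpc3*, a glypican of the cell surface, was at 88.7, 131 and 153 CPM, ratios of 2.84, 5.32 and 2.28. *Psd*, an exchange factor for the small GTPase ARF6, was at 79.4, 117 and 111 CPM, ratios of 2.47, 11.0 and 3.32. Decorin (*Dcn*) was at 136, 216 and 228 CPM, ratios of 3.38, 4.69 and 2.82, although the gate held it below 10 per 10000 in each cell. *Col14a1*, a collagen associated with fibrils, was at 245, 556 and 477 CPM, ratios of 1.72, 4.43 and 2.48. *Mfap5*, a microfibril protein that binds fibrillins, was at 1101, 597 and 498 CPM, ratios of 1.67, 2.44 and 2.31. All 6 stayed above other mural cells in each library without called doublets, where the mgR ratios were 3.33, 4.18, 13.0, 2.93, 2.35 and 3.29 in that order.

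The remaining genes of the 15 highest were the calcium-activated chloride channel *Ano1*, with ratios of 1.80, 1.93 and 1.68, and the matricellular gene *Smoc1*, with 1.67, 2.74 and 2.38. *Fibin*, *Gadd45g* and the Hippo pathway kinase *Stk3* followed, with lowest ratios of 1.66, 1.61 and 1.59, each in WT. All of the 15 held their direction in the 3 libraries by the rule that chose them.

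At the other end, synuclein gamma (*Sncg*) was at 19.6, 96.9 and 119 CPM in *Rgs5*-rich and at 58.5, 365 and 292 CPM in other mural cells of WT, mgR and mgR-LOS. Its ratios were 0.335, 0.265 and 0.407, with 0.0817 in mgR without called doublets. The ligand *Wnt16* had ratios of 0.527, 0.451 and 0.475, the IGF-binding *Igfbp2* 0.444, 0.608 (0.896 without called doublets) and 0.460, and the calcium-binding *S100a4* 0.618, 0.575 and 0.587. The list of the 10 lowest was completed by *2200002D01Rik*, *Cdh6*, the laminin receptor *Bcam*, *Tm4sf1*, *Efhd1* and *Mfge8*, which encodes lactadherin. In the plot of ratios these genes lie below a ratio of 1 in each library.

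**Figure D3:**
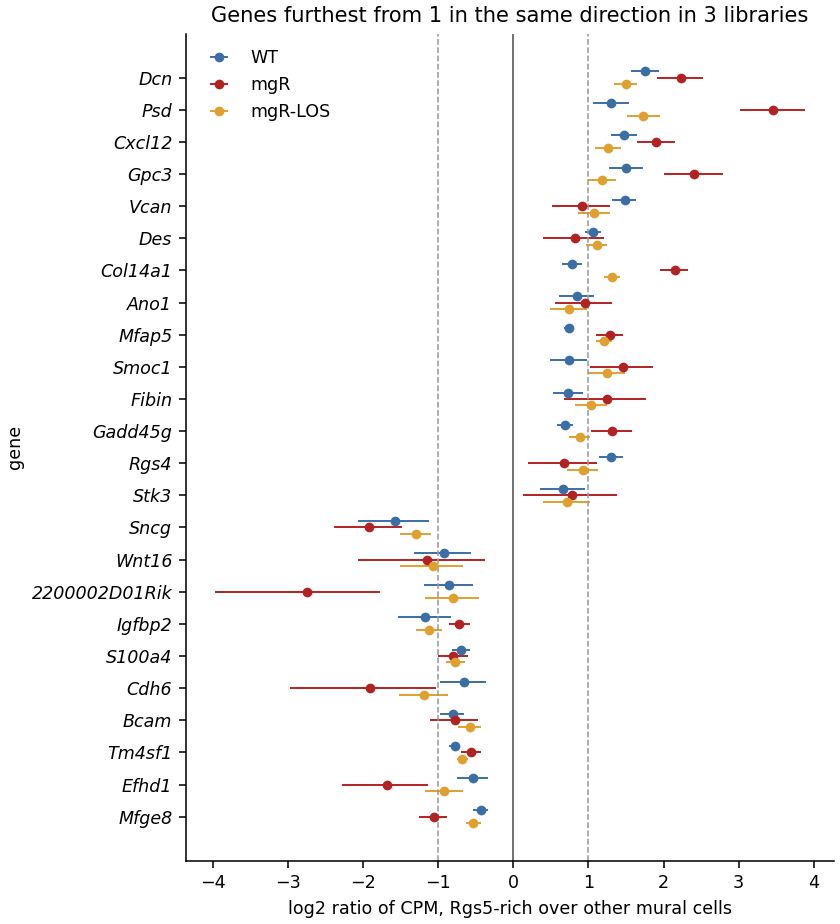
Ratio of *Rgs5*-rich over other mural cells (x axis, log2) for the 14 highest genes after *Rgs5* and the 10 lowest, 1 point per library, with dashed lines at 2-fold. *Psd* reaches 11.0-fold in mgR and *Sncg* lies below 0.5 in all 3 libraries.

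Over all cells, contractile genes were on the median close to other mural cells in WT and mgR-LOS and lower in mgR. The 6 gate genes of mgR summed to 39699 CPM, and to 46215 CPM without called doublets. Other mural cells of mgR, with called doublets kept, stood at 50619 CPM. The mgR level of these genes thus depended on the called doublets. Of the 6 gate genes, *Acta2*, *Tagln* and *Tpm2* were lower in all 3 libraries, with *Acta2* (smooth muscle actin) at ratios of 0.880, 0.773 and 0.888, and only the myosin light chain *Myl9* was higher, at 1.07, 1.03 and 1.05. *Myh11*, the smooth muscle myosin heavy chain, was at 4433, 2147 and 3919 CPM, ratios of 1.09, 0.692 and 0.937. Of 24 further contractile and cytoskeletal genes, 20 reached the floor, 2 were higher in all 3 libraries and 9 lower. The higher ones were tropomyosin *Tpm1* and the LIM protein *Fhl1*, at up to 1.28-fold. Among the lower ones were *Ppp1r14a*, the inhibitor of myosin phosphatase, at 0.706, 0.647 and 0.782, vimentin (*Vim*) at 0.886, 0.626 and 0.842, and the kinase *Mylk4* at 0.950, 0.536 and 0.606. The median ratio of the list was 0.994, 0.729 and 0.968, against 1.01, 0.989 and 0.992 over the 2538 genes at the floor in all 3 libraries.

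Receptors for vasoactive signals were mostly too low to compare. Of 32 receptors and G protein subunits 6 reached the floor, all of them G protein alpha subunits. *Gnas*, the subunit that stimulates adenylyl cyclase, was at 1190, 1104 and 1297 CPM with ratios between 1.00 and 1.01. *Gnaq* and *Gna11*, subunits of the Gq family, had ratios of 0.967, 1.21 and 1.04 and of 0.949, 1.22 and 0.980. The endothelin receptor *Ednra* lay below the floor at 10.3, 33.8 and 35.8 CPM against 2.96, 2.88 and 8.62 CPM. The losartan target *Agtr1a* had 6, 2 and 7 UMIs in all *Rgs5*-rich cells.

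Of 19 genes of potassium and calcium handling, 8 reached the floor, 4 were higher in all libraries and 2 lower. The calcium channel subunit *Cacna2d1* was at 146, 146 and 130 CPM, ratios of 1.31, 1.33 and 1.26. The calcium sensor *Stim1* had ratios of 1.36, 1.30 and 1.37, and the potassium channel subunit *Kcnmb1* had 0.940, 0.619 and 0.850. Of 10 genes of cyclic GMP signaling in the files, 6 reached the floor and *Pde5a*, the phosphodiesterase that degrades cyclic GMP, was higher in all libraries, at 179, 212 and 250 CPM and ratios of 1.44, 1.78 and 1.34. None of the list was lower in all 3.

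Of 16 Notch pathway genes in the files, 3 reached the floor, and the DNA-binding mediator *Rbpj* was higher in all libraries at 1.04, 1.38 and 1.03. The Notch target *Heyl* was at 0.696, 1.33 and 0.778 and *Hes1* at 0.771, 1.66 and 1.18, so their directions differed between libraries. Of 7 PDGF pathway genes only the ligands *Pdgfa* and *Pdgfd* reached the floor, without a common direction. Of 21 TGF-β pathway genes, 14 reached the floor, 5 were higher in all libraries and 2 lower. *Ltbp1*, which stores latent TGF-β in the matrix, was at 695, 689 and 523 CPM, ratios of 1.42, 1.19 and 1.26. *Ltbp2* had 1.60, 1.29 and 1.66 and the inhibitory *Smad7* 1.09, 1.59 and 1.36.

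Of 29 collagen, basement membrane and integrin genes, 21 reached the floor, 9 were higher in all libraries and 2 lower. *Col6a1*, a microfibrillar collagen, was at ratios of 1.46, 1.45 and 1.23, the basement membrane *Col4a5* at 1.33, 1.36 and 1.33, and *Col18a1* lower at 0.891, 0.577 and 0.776. In mgR the list summed to 17263 CPM against 16461 CPM in other mural cells. Without called doublets the mgR members summed to 14221 CPM, below the value of other mural cells, which kept called doublets. Of 18 elastic fiber genes, 10 reached the floor, 5 were higher and 2 lower. Elastin (*Eln*) had ratios of 1.13, 1.04 and 1.12 and fibulin-5 (*Fbln5*), which links elastin to cells, 1.29, 1.22 and 1.20. Of 20 genes of proteoglycans and hyaluronan, 6 reached the floor. The versican-cleaving proteases *Adamts1* and *Adamts5* were higher in all libraries, with *Adamts5* at 1.22, 2.15 and 1.62, and biglycan (*Bgn*) was lower at 0.948, 0.824 and 0.874. The counts of these lists, from the contractile genes on, stand beside 19.4% of all genes that were higher and 19.7% that were lower in all 3 libraries.

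Of 10 genes that mark regions or subsets of aortic smooth muscle, 9 reached the floor, 1 was higher in all libraries and 5 lower. The higher one was *Tnnt2*, the troponin of heart muscle, at 316, 392 and 495 CPM and ratios of 1.55, 1.77 and 1.72, and lower ones included *Sncg* and nephronectin (*Npnt*) at 0.868, 0.613 and 0.814. Of 47 developmental transcription factors 10 reached the floor, and *Foxc1*, *Meis2* and *Prrx1* were higher in all libraries, with *Meis2* at 1.38, 2.43 and 1.62. Of 22 immediate early genes 18 reached the floor, with 5 higher and 1 lower. *Nr4a2* had ratios of 1.17, 4.20 and 3.69 and *Klf2*, a flow-responsive factor, 1.10, 2.19 and 1.80. Of 16 genes of modulated smooth muscle 5 reached the floor, *Cxcl12* higher and *Igfbp2* lower in all libraries. None of 15 cell cycle genes reached the floor. Beside these counts too stand 19.4% of all genes that were higher and 19.7% that were lower in all 3 libraries.

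Endothelial and leukocyte markers were low but not absent. Of 13 endothelial markers 1, *Fabp4*, reached the floor in all libraries. The list summed to 64.2, 297 and 111 CPM in *Rgs5*-rich cells of WT, mgR and mgR-LOS, with mgR at 380 CPM without called doublets, and to 121, 132 and 156 CPM in other mural cells. *Fabp4* was its most abundant gene at 44.6, 241 and 78.7 CPM, the defining *Cdh5* had 0, 0 and 2 UMIs, and 6, 8 and 4 of the 13 genes were at 0. The 13 fibroblast markers summed to 6811, 9491 and 7760 CPM against 6712, 7856 and 5854 CPM, led by *Col3a1*, which mural cells also express. Without called doublets the mgR sum was 7166 CPM, below that of other mural cells with called doublets kept. Of the 13 fibroblast markers 5 reached the floor and 3 were higher in all libraries, among them *Dcn*, beside 19.4% of all genes. The 16 leukocyte markers summed to 14.2, 99.1 and 87.0 CPM against 22.0, 97.5 and 125 CPM, with mgR at 132 CPM without called doublets, and none reached the floor.

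Of 7 Schwann cell markers only *Ncam1*, which smooth muscle also carries, reached the floor, at 595, 230 and 361 CPM. In mgR the list summed to 232 CPM against 283 CPM in other mural cells and to 376 CPM without called doublets, and the mgR over WT ratio of *Ncam1* went from 0.386 to 0.628, no longer past 2-fold. Of 13 cardiomyocyte markers only *Tnnt2* did so in all 3 libraries, at 316, 392 and 495 CPM of sums of 405, 489 and 570 CPM. The 7 mesothelial markers summed to 0.490, 0 and 1.79 CPM and the 15 cell cycle genes to 87.7, 153 and 164 CPM. The 5 red cell markers summed to 11.8, 94.6 and 3079 CPM, with mgR at 179 CPM without called doublets, and their high mgR-LOS value came largely from 2 cells, as given below. The part of these markers in the other differences was not tested.

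In WT the marker genes were higher in cells with the most *Rgs5* than in cells without it, though they did not rise at every step. The mgR cells with the most *Rgs5* stood apart. In WT *Des* was at 180 CPM (174 to 185) in the 1841 mural cells without *Rgs5*, 355 CPM (321 to 392) at 5 to 10 per 10000 and 485 CPM (410 to 570) in the 21 cells at 20 or above. In mgR-LOS it went from 119 CPM (116 to 122) to 192 CPM (166 to 221) and 509 CPM (416 to 616) at the same levels. In mgR it was at 65.2 CPM without *Rgs5*, 126 CPM (72.1 to 205) at 5 to 10 and 45.4 CPM (16.7 to 98.9) in the 13 cells at 20 or above. *Vcan* in WT went from 52.8 CPM to 139 and 294 CPM, and *Rgs4* from 66.0 to 138 and 422 CPM. At the steps between, WT *Des* was at 158 CPM (151 to 166) above 0 to 2 and 333 CPM (289 to 381) at 10 to 20. WT *Actg2* went from 532 CPM at 5 to 10 to 506 CPM at 10 to 20. In mgR-LOS cells at 20 or above, *Vcan* was at 34.2 CPM (13.8 to 70.5) and *Rgs4* at 73.3 CPM (41.1 to 121), below the 5 to 10 step.

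The highest *Rgs5* cells of mgR also had the lowest contractile level. *Myh11* was at 3121 CPM in mgR mural cells without *Rgs5* and 1416 CPM at 20 or above, where 53.8% were called doublets. In WT the same step held 4848 CPM of *Myh11* and 4.76% called doublets. *Col14a1* went from 120 to 961 CPM in mgR, from 183 to 939 CPM in mgR-LOS and from 140 to 234 CPM in WT. Below 20 per 10000, *Des*, *Vcan* and *Actg2* were above the level of cells without *Rgs5* in all 3 libraries at both steps of *Rgs5*-rich cells.

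**Figure D4:**
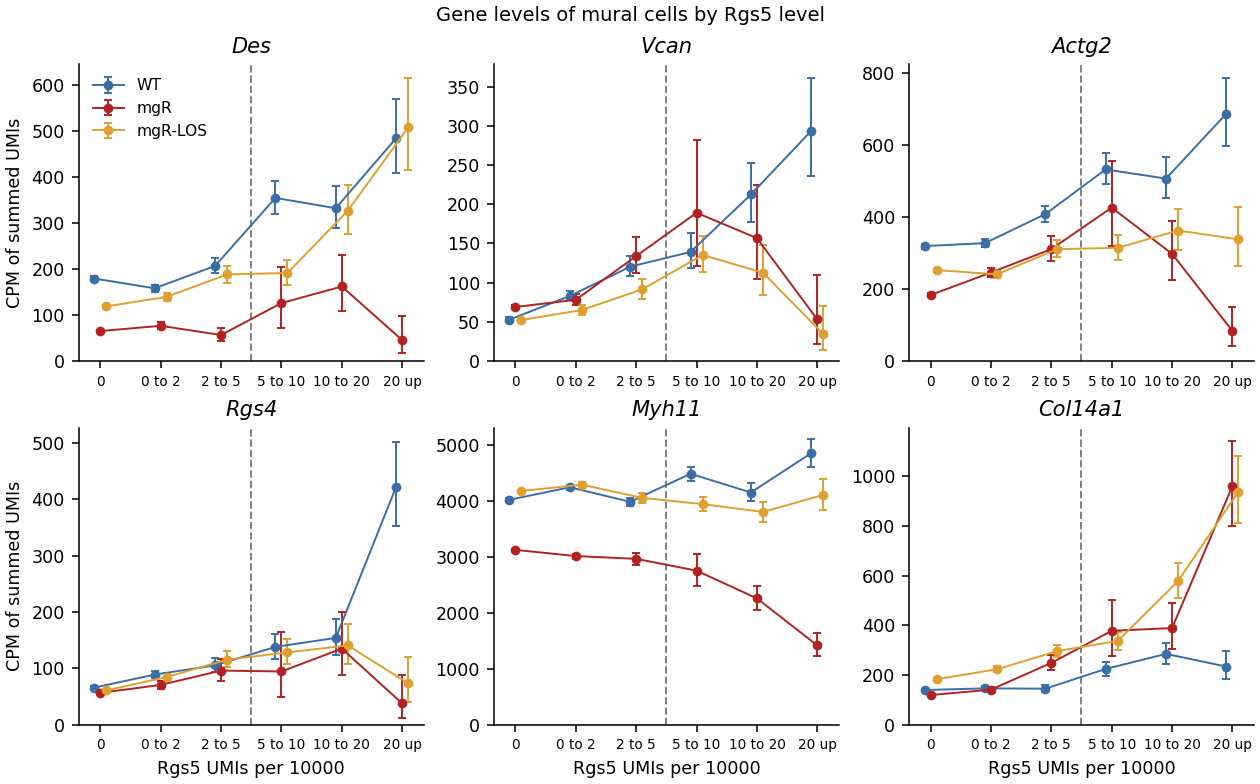
Levels of *Des*, *Vcan*, *Actg2*, *Rgs4*, *Myh11* and *Col14a1* (y axis, CPM) in mural cells by *Rgs5* level (x axis, UMIs per 10000), with 95% Poisson intervals and a dashed line at the limit of 5. *Des* reaches 485 CPM in WT and 509 CPM in mgR-LOS at 20 or above but 45.4 CPM in mgR, where 13 cells remain.

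The genes most like *Rgs5* from cell to cell were again *Mfap5*, *Psd*, *Gpc3*, *Cxcl12*, *Dcn* and *Col14a1*, followed by *Nr4a2*, *Colec12*, *Crispld2* and *Adamts1*. Their Pearson coefficients over the 2849, 2883 and 7181 mural cells of the libraries lay between 0.0783 and 0.229. Such weak values in sparse counts, over cells that share a library and differ in depth, are only a description.

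The comparison of mgR with WT asked how the *Rgs5*-rich cells differed in the fibrillin-1 deficient aorta. Of 3127 genes at the floor, 211 (6.75%) were at least 2-fold higher in mgR and 102 (3.26%) at least 2-fold lower. Without called doublets, 119 of 3125 (3.81%) were higher and 131 (4.19%) lower, so the balance turned. In other mural cells, over many more UMIs, 46 of 2809 (1.64%) were higher and 43 (1.53%) lower. Of 2724 genes at the floor in both populations, 97 were higher and 87 lower in *Rgs5*-rich cells. In other mural cells 38 of these genes were higher and 42 lower. In both populations 30 were higher and 26 lower, and none went in opposite directions. Of the genes of modulated smooth muscle, *Mgp* and *Fn1* were at least 2-fold higher in mgR, and *Fbn1* and *Des* were lower. The 40 mgR cells held 443893 UMIs against 2040517 in WT, so low genes in mgR rest on few UMIs.

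*Fbn1* was at 0.362 of WT (0.258 to 0.496) in *Rgs5*-rich cells and at 0.325 of WT in other mural cells, where it was at 239 and 77.8 CPM. *Des* was at 368 CPM in WT and 117 CPM in mgR, a ratio of 0.319 (0.236 to 0.422), and at 0.378 in other mural cells. Without called doublets its ratio was 0.569 (0.416 to 0.763). *Actg2* was at 547 and 270 CPM, a ratio of 0.494, which was 0.874 (0.713 to 1.06) without called doublets. *Vcan* was at 184 and 135 CPM, a ratio of 0.734, and at 1.10 (0.795 to 1.50) without called doublets, so its direction turned. *Rgs4* was at 0.511 of WT and at 0.482 without them. *Myh11* was at 0.484 and 0.595, and synaptopodin 2 (*Synpo2*), an actin-bundling protein, at 609 and 189 CPM, a ratio of 0.311, or 0.531 without called doublets.

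Of 16 genes of modulated smooth muscle, 9 reached the floor and 8 were at least 2-fold higher in mgR, as were 6 of 9 in other mural cells. The floor could be met in either library, and in *Rgs5*-rich cells *Igfbp2*, *Mmp2* and *Timp1* met it only in mgR. Such genes could enter only as higher, so the count does not measure the whole list. *Igfbp2* was at 34.3 CPM in WT and 971 CPM in mgR, a ratio of 28.3 (21.9 to 37.0), and stood at 40.8 without called doublets. It was found in 24 of the 40 mgR cells, 1 of which gave 39.0% of its UMIs. In other mural cells the *Igfbp2* ratio was 20.7. *Mgp*, an inhibitor of calcification, was at 5826 and 22756 CPM, a ratio of 3.91, and fibronectin (*Fn1*) at 477 and 1086 CPM, a ratio of 2.28 (2.04 to 2.54). The protease *Mmp2* was at 43.1 and 104 CPM and its inhibitor *Timp1* at 12.7 and 54.1 CPM, ratios of 2.40 and 4.24. Without called doublets these ratios were 2.47 for *Mgp*, 2.67 for *Fn1*, 2.37 for *Mmp2* and 3.50 for *Timp1*, and 6 of 7 genes of the list at the floor were at least 2-fold higher.

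The 8 highest ratios of mgR over WT belonged to genes with 7 or fewer UMIs in the WT cells. The chemokine *Cxcl1* was at 0.980 CPM (2 UMIs) in WT and 212 CPM in mgR, a ratio of 216 (58.2 to 1810.2). Follistatin (*Fst*), an antagonist of activins, was at 3.43 and 455 CPM, and the carboxypeptidase-like *Cpxm2* at 1.47 and 198 CPM. Interleukin 6 (*Il6*) had no UMI in WT and was at 144 CPM in mgR, at least 98.1-fold higher at a floor of 3 UMIs in WT, or at least 46.9-fold without called doublets. The others were the laminin chain *Lamb1*, the prostaglandin transporter *Slco2a1*, glutathione peroxidase 3 (*Gpx3*) and the collagen *Col8a1*. All 8 genes were higher in mgR in other mural cells too, from 2.52-fold for *Fst* to 74.7-fold for *Slco2a1*. Only *Cxcl1*, at 13.6-fold, and *Col8a1*, at 12.8-fold, reached the floor there. Called doublets moved some of these values. Without them, mgR levels were 76.9 CPM for *Cxcl1*, 102 CPM for *Fst*, 8.54 CPM for *Cpxm2* and 72.6 CPM for *Il6*, and the *Cpxm2* ratio of 5.52 (0.461 to 48.2) had an interval that included 1.

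The 8 lowest ratios were those of *Bmpr1b*, *Tnxb*, *Wif1*, *Dsp*, *Tpd52l1*, *Kcnj15*, *Tes* and *Lrrc17*, from 0.0274 to 0.174. *Wif1*, a secreted inhibitor of Wnt ligands, was at 110 CPM in WT and 4.51 CPM in mgR. Desmoplakin (*Dsp*) was at 203, 18.0 and 39.3 CPM, and the BMP receptor *Bmpr1b* at 82.3, 2.25 and 17.9 CPM, with 1 UMI in mgR. The low mgR level held without called doublets for all 8, with ratios from 0.0392 to 0.267. In other mural cells the same genes were lower in mgR as well, *Dsp* at 186 and 53.4 CPM and *Wif1* at 172 and 30.2 CPM.

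Among the other lists, 7 of 11 proteoglycan genes at the floor were at least 2-fold higher in mgR and 2 lower. Of 19 immediate early genes 6 were higher and 2 lower, and 5 of 10 fibroblast and 4 of 7 pericyte markers were higher. Here too a gene could meet the floor in mgR alone, as *Notch3* did at 9.31 CPM in WT and 167 CPM in mgR. Such genes could enter only as higher. In other mural cells 0 of 4 fibroblast and 1 of 5 pericyte markers were higher. There 1 of 8 proteoglycan genes was higher and 2 lower, and 0 of 19 immediate early genes were higher and 2 lower. Without called doublets, 2 of 8 proteoglycan genes of *Rgs5*-rich cells were higher and 2 lower. In that setting 0 of 18 immediate early genes were higher and 2 lower, and 2 of 7 fibroblast markers were higher. The factor *Klf4*, which represses contractile genes, was at 111 and 759 CPM, and at 116 and 248 CPM without called doublets. Thrombospondin 1 (*Thbs1*), an activator of latent TGF-β, was at 16.7 and 601 CPM, and at 15.5 and 115 CPM without called doublets. *Notch3* was at 17.9 times WT, or 7.82 times without called doublets. Of 17 TGF-β pathway genes 3 were higher, of 26 collagen and matrix genes 4 were higher and 2 lower, and of 11 elastic fiber genes 2 were lower. No gene of the 9 at the floor for potassium and calcium handling passed 2-fold. Without called doublets 2 of 16 TGF-β pathway genes were higher and 2 lower, 1 of 23 collagen and matrix genes higher and 1 lower, 1 of 11 elastic fiber genes lower, 2 of 6 pericyte markers higher and 1 of 9 potassium and calcium genes higher. Over all genes the shares were the 6.75% higher and 3.26% lower given above in all cells, and 3.81% higher and 4.19% lower of 3125 genes without called doublets. The endothelial marker *Fabp4* moved with this comparison, at 5.41 times WT in all cells and 7.19 times without called doublets, and its part in the other differences was not tested.

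**Figure D5:**
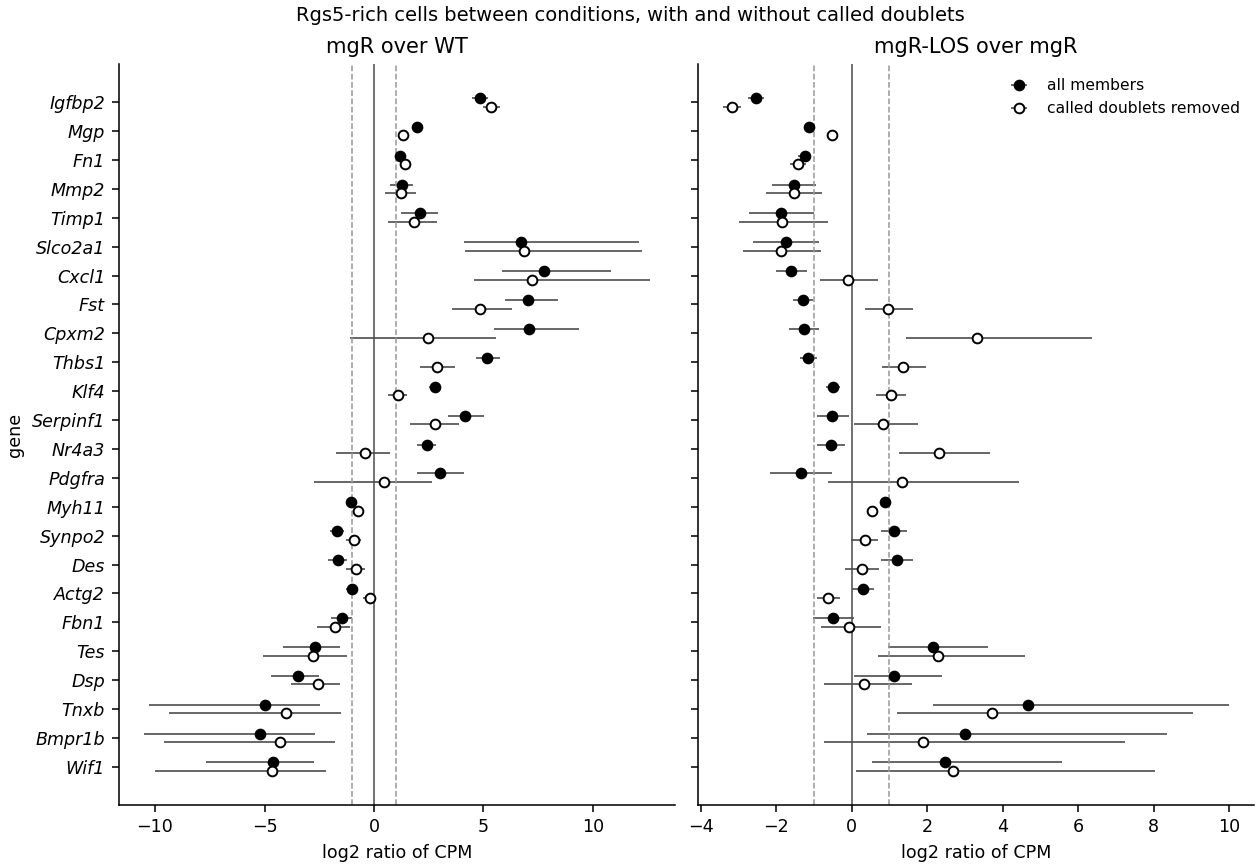
Ratios of mgR over WT and of mgR-LOS over mgR (x axis, log2) for 24 genes in *Rgs5*-rich cells, filled for all cells and open without called doublets. *Igfbp2* and *Fn1* lie above WT in mgR and below mgR in mgR-LOS with both symbols, whereas *Klf4* and *Thbs1* change side in the losartan comparison.

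The comparison of mgR-LOS with mgR asked how *Rgs5*-rich cells differed in mutants given losartan, and it shares the mgR library with the comparison above. Of 3121 genes at the floor, 64 (2.05%) were at least 2-fold higher in mgR-LOS and 107 (3.43%) at least 2-fold lower. Without called doublets, 160 of 3172 (5.04%) were higher and 100 (3.15%) lower, so the balance turned. In other mural cells 25 of 2873 (0.87%) were higher and 30 (1.04%) lower. Of 2754 genes at the floor in both populations, 48 were higher and 35 lower in *Rgs5*-rich cells. In other mural cells 25 of these genes were higher and 22 lower. In both populations 13 were higher and 12 lower, and 1, *Ccdc3*, went in opposite directions. Several genes of modulated smooth muscle, *Igfbp2* and *Fn1* among them, were at least 2-fold lower in mgR-LOS. The endothelial marker *Fabp4* moved with this comparison, at 0.326 of mgR in all cells and 0.234 without called doublets. Its part in the other differences was not tested. Of the contractile lists, none of 6 gate genes and 3 of 23 other genes were at least 2-fold higher, and without called doublets 1 of those 23 was higher and 1 lower. Losartan and library cannot be told apart, since the mgR-LOS library was the only one from treated mice and its mural cells had the lowest median UMIs.

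*Igfbp2* stood at 971 CPM in mgR against 167 CPM in mgR-LOS, a ratio of 0.172 (0.148 to 0.201), and 1 mgR cell gave 39.0% of its mgR UMIs. In other mural cells the *Igfbp2* ratio was 0.228. *Fn1* was at 1086 and 457 CPM, a ratio of 0.421, *Mgp* at 22756 and 10340.2 CPM, a ratio of 0.454, and *Mmp2* at 104 and 35.8 CPM, a ratio of 0.345. Of the 9 genes of modulated smooth muscle at the floor, 5 were at least 2-fold lower, the same count as in other mural cells, and none was higher. Of these genes *Mmp2* met the floor only in mgR and so could enter only as lower. Without called doublets 3 of 7 were lower and 1 was higher. In that setting *Igfbp2* was at 0.111, *Fn1* at 0.373, *Mmp2* at 0.344 and *Mgp* at 0.698. The mgR-LOS levels of *Fn1* and *Mmp2* lay close to the WT levels of 477 and 43.1 CPM, while *Igfbp2* and *Mgp* lay above WT.

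*Fbn1* stood at 94.6 CPM in mgR against 67.3 CPM in mgR-LOS, a ratio of 0.712 (0.495 to 1.04). *Des* was at 117 and 268 CPM, a ratio of 2.28 (1.71 to 3.11), and at 1.86 in other mural cells. Without called doublets the *Des* ratio was 1.20 (0.890 to 1.66). *Myh11* was at 2147 and 3919 CPM, a ratio of 1.83, or 1.46 without called doublets. *Actg2* had a ratio of 1.22 and *Vcan* of 0.864, and without called doublets these were 0.647 and 0.566, so that *Actg2* turned direction. *Rgs4* had a ratio of 1.32, or 1.35 without called doublets.

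The highest ratios of mgR-LOS over mgR were those of 4 globin genes, *Hbb-bt*, *Hba-a1*, *Hba-a2* and *Hbb-bs*. A single mgR-LOS cell held 3624 of the 5154 globin UMIs, 26.5% of its own RNA, and a second held 1470. Without both, globin was at 36.3 CPM in place of 3071 CPM. The next were *Tnxb*, *Zbtb16*, *Vps37b* and *Tes*. The transcription factor *Zbtb16* was at 33.3 CPM in WT, 18.0 CPM in mgR and 142 CPM in mgR-LOS, a ratio of 7.90 (3.95 to 18.5), with 32.8, 16.4 and 138 CPM in other mural cells and a ratio of 5.68 (2.57 to 15.7) without called doublets.

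The lowest ratios were those of *Rgs16*, *Ifitm1*, the adhesion molecule *Icam1*, *G0s2*, *Col8a1*, *Sept4*, *Igfbp2* and *Tnfaip3*, an inhibitor of NF-κB signaling. *Rgs16*, another RGS protein, had 67.6 CPM in mgR against 1.19 CPM in mgR-LOS, but 1 mgR cell gave 86.7% of its UMIs, and 1 cell gave 88.9% of those of *Ifitm1*. *Icam1* was at 1.96, 101 and 12.5 CPM in WT, mgR and mgR-LOS, and in mgR at 4.27 CPM (1 UMI) without called doublets. The ratios of *Icam1* and *G0s2* then turned from 0.123 and 0.145 to 2.14 (0.326 to 90.5) and 3.36 (0.544 to 139), each with 1 UMI in mgR. *Tnfaip3* went from 0.172 to 0.688 (0.278 to 2.04) and *Col8a1* from 0.165 to 0.472 (0.234 to 1.03), with intervals that included 1, while *Sept4* at 0.153 and *Igfbp2* at 0.111 stayed low. Over all mgR cells, however, 1 cell gave 45.7% of the *Sept4* UMIs and 1 cell 39.0% of those of *Igfbp2*. *Klf4* and *Thbs1* were lower in mgR-LOS than mgR over all cells, at ratios of 0.713 and 0.450, and higher without called doublets, at 2.05 and 2.56. Of 26 collagen and matrix genes at the floor 3 were lower and 1 higher, of 17 TGF-β pathway genes 2 were lower and of 7 pericyte markers 1 was lower, beside 2.05% higher and 3.43% lower over all genes. Without called doublets none of 23 collagen and matrix genes passed 2-fold, 1 of 17 TGF-β pathway genes was higher and 1 lower, and none of 6 pericyte markers passed it, beside 5.04% higher and 3.15% lower of 3172 genes over all genes.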

How the data were processed

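For each of 3 droplet libraries (Chromium 3′ v3.1) the authors deposited a matrix of raw UMI counts over 32285 genes of GRCm38, one column per barcode. Per the file headers they were made with Cell Ranger 5.0.1 (WT, mgR) and 6.0.1 (mgR-LOS), whereas the labels name 6.0.1 for all. No column of per-sample values was left unused. Cells were filtered and gated as stated in the report. Gene positions came from GENCODE for the mouse (GRCm38) and promoter windows from RefSeq (GRCm38.p6).

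Counts were summed per population and library and scaled to CPM (numpy 2.4.6, pandas 2.3.3, Python 3.11.15). Intervals at 95% were exact Poisson for sums, Clopper-Pearson for shares, conditional binomial for ratios and Newcombe for differences of shares (scipy 1.17.1), and they cover counting error only. A gene was compared at 50 CPM or more in either population and 20 or more UMIs over both, and was counted as higher or lower past 2-fold. A ratio to a library at 0 was set at a floor of 3 UMIs. Ratios were checked on simulated counts. Precision follows the members' totals of 2040517, 443893 and 1678300 UMIs in WT, mgR and mgR-LOS.

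Doublets were scored with 25% artificial doublets, 10 components and a neighborhood of 1% (scikit-learn 1.9.0). They were called at 0.8% per 1000 passing cells, which took 4.29%, 6.46% and 10.2% of those cells. Called doublets were kept in the main values. Figures used matplotlib 3.10.9.

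Genes named are *Rgs5*, *Des*, *Vcan*, *Actg2*, *Fbn1*, genes of the lists, the 15 highest and 10 lowest ratios of members over other mural cells by their smallest size over the libraries, the 8 highest and 8 lowest ratios between conditions whose intervals leave out 1, and the 10 genes most correlated with *Rgs5*. Members and lists were chosen with earlier results of these data known. *Ccdc3* was named after its values were seen.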

Additional observations from a re-analysis of the deposited data

Results flagged for a closer look

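*Ccdc3*, which encodes a secreted coiled-coil protein, was singled out because *Rgs5*-rich and other mural cells moved opposite ways between mgR and mgR-LOS. In *Rgs5*-rich cells its level was 108 CPM in WT, 33.8 CPM in mgR and 69.1 CPM in mgR-LOS, a ratio of mgR-LOS over mgR of 2.05 (1.19 to 3.77). In other mural cells it was at 178 and 88.8 CPM. Without called doublets the ratio in *Rgs5*-rich cells was 1.71 (0.897 to 3.67), an interval that included 1. The difference between the populations was not tested.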

How the results depend on the processing

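Of 140 values under alternatives, 85 stayed within the 95% counting interval of the main share or difference, or within 1.5 times the main count of genes, and 55 moved further. Neither difference between shares changed sign. Shares of *Rgs5*-rich among mural cells are given in the order WT, mgR and mgR-LOS, and the order of the libraries was the same under every alternative. No paired analysis was possible because each condition had 1 library.

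With *Rgs5* of at least 3 the shares were 8.21%, 2.81% and 4.50% and mgR minus WT was −5.40 points. No gene was then 2-fold lower in members in all libraries, 63 were lower in mgR than WT, and 38 were higher and 48 lower in mgR-LOS than mgR. With *Rgs5* of at least 10 the shares were 2.32%, 0.937% and 1.10%, the differences −1.38 and 0.164 points, 8 genes were higher and 3 lower in members, 194 lower in mgR than WT and 122 higher in mgR-LOS than mgR. With a contractile sum of at least 300 the mgR share was 0.913%, 114 genes were higher in mgR than WT, and 109 were higher and 69 lower in mgR-LOS than mgR. With *Dcn* below 3 the shares were 4.29%, 0.907% and 2.08%. With at most 5% mitochondrial UMIs they were 4.01%, 2.66% and 3.89%, mgR minus WT was −1.35 points, 5 genes were lower in members, 353 higher and 206 lower in mgR than WT, and 105 higher and 199 lower in mgR-LOS than mgR. Without called doublets the mgR share was 0.910%, 119 genes were higher and 131 lower in mgR than WT (211 and 102 in all cells, 67 of the higher ones shared), and 160 were higher and 100 lower in mgR-LOS than mgR (64 and 107), so that the balance of calls turned in both. Without called doublets and cells at 20 or more *Rgs5*, 112 genes were higher and 135 lower in mgR than WT. In the same setting 186 were higher and 123 lower in mgR-LOS than mgR.

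At 4000 UMIs per cell the shares were 7.50%, 2.66% and 3.85%, mgR minus WT was −4.84 points, 117 genes were higher and 48 lower in mgR than WT, and 33 higher and 37 lower in mgR-LOS than mgR. With CPM over genes other than mitochondrial, ribosomal, globin and rRNA genes, 160 were lower in mgR than WT and 100 higher in mgR-LOS than mgR. At a floor of 100 CPM and 50 UMIs, 3 genes were higher and 0 lower in members, 106 higher and 50 lower in mgR than WT, and 24 higher and 47 lower in mgR-LOS than mgR. As a mean over cells, 99 were higher in mgR-LOS than mgR. Wider limits on genes per cell, at least 4 *Rgs5* UMIs, cells with a *Pecam1* UMI kept, and genes mostly from 1 cell not called moved no value past these limits, though the last took the genes higher in mgR than WT to 169 and those lower in mgR-LOS than mgR to 80. The interval of mgR minus WT included 0 at 5% mitochondrial UMIs, and that of mgR-LOS minus mgR there and at *Rgs5* of at least 10. The causes were not tested. The last 3 and the removal of both doublets and the highest *Rgs5* cells were chosen after seeing the data. The 40 mgR cells and their 443893 UMIs limit every mgR value.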
